A study of Mus musculus with 6 samples.

Results

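Nuclear genes for the mitochondrial respiratory chain were examined in dendritic cells (DCs) sorted from the mouse thymus. They were taken by symbol alone, with no measured value in the rule: Nduf followed by a, b, c, s or v and a digit, names starting with Uqcr, Sdha to Sdhd, Cox4 to Cox8 names, and names starting with Atp5, leaving out Cox6a2. This gave 83 of the 23420 genes in the count files, namely 37 of complex I, 4 of complex II, 8 of complex III, 17 of complex IV and 17 of complex V. A few names are not subunits in the strict sense: Cox7a2l joins complexes into supercomplexes, Ndufa4 is now assigned to complex IV, and Atp5s and Atp5sl carry an ATP synthase name only.

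All mice were labelled wild type, and each of the 3 groups had 2 libraries. The YG+ pDC group held plasmacytoid DCs (CD11c low, B220+) that carried yellow-green microspheres (YG). Their donors bore MC38 tumours, grown from a colon carcinoma line, which were injected with YG after 12 days, and thymic cells were taken 2 days after the injection. The PBS pDC group held cells of the same CD11c low B220+ gate, and the PBS Sirpa+ DC group, below Sirpa+ DCs, held CD11c high Sirpa+ cells, a conventional DC subset. Both came from mice given PBS. The labels give 2 weeks for all 3 groups. Whether the PBS mice bore a tumour, and the age and strain of the mice, were not stated in the labels. The injected material, the YG gate and the tumour therefore cannot be told apart in the comparison of YG+ with PBS pDCs. Separate animals behind the libraries of one group are not mentioned in any label. The p-values then reflect nothing beyond the spread from library to library, and that spread may be technical.

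The respiratory chain sits in the inner mitochondrial membrane. Complexes I and II take electrons from NADH and from succinate, complexes III and IV pass them through cytochrome c to oxygen, and complexes I, III and IV pump protons that complex V, the ATP synthase, uses to make ATP. The nucleus encodes most subunits, the mitochondrial genome encodes a few core ones, and some subunits come as alternative isoforms from separate genes. Respiration and glycolysis are both studied as energy sources of DCs, and pDCs are known for type I interferon.

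Gene counts per library ran from 177844 to 713966, which was 0.842% to 3.36% of uniquely placed records. The library labelled PBS pDC replicate 1 had the fewest counts and the lowest share. The chain genes held between 504 and 1999 counts per library, with a median of 4 to 17 counts per gene. Of the 83 genes, 64 had a count in all 6 libraries and 50 had enough counts for the test: 19 of complex I, 4 of complex II, 3 of complex III, 10 of complex IV and 14 of complex V. The other 33 comprised 5 at 0 in every library, 5 with 1 to 9 counts in all and 23 with 10 or more. Those at 0 were Cox7b2, Cox8c, Ndufa4l2, Ndufs3 and Ndufs5, and those with 1 to 9 counts were Atp5a1, Atp5s, Cox6b2, Cox8b and Uqcrc1. Ndufs3 is a core subunit of complex I, and Atp5a1 is the alpha subunit that alternates with beta in the ATP synthase. They belong to enzymes whose other members had counts, as do Ndufs5 of complex I and Uqcrc1 of complex III. Only the listing of these genes at or near 0 is reported. A count of 0 allows, at 3 counts, 4.21 to 19.1 CPM depending on the library, where CPM stands for counts per 1000000 after scaling each library with edgeR's TMM factor. Intervals and limits of this kind cover counting error only. How the counting treated strand is not stated, and Tsix, antisense to Xist, had 2.70 to 20.5 times its counts. Were reads of the opposite strand counted, no value below would measure transcripts of the gene named, and this was not tested. Of the chain genes, 58 had no exon under an annotated exon of the opposite strand and 8 had more than 10% of their exon bases there, so counts of the latter (Ndufa2, Ndufa13, Ndufb5, Ndufb6, Ndufb11, Uqcrc2, Cox5a and Atp5j) may belong in part to a neighbour.

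Start sites were available in RefSeq (GRCm38.p6) for 66 of the 83 genes, as 71 windows of 300 bases that run from 250 bases before the start to 50 after it. Letters known from binding sites of nuclear respiratory factor 1 (NRF1), namely GCGCA, any base, then GCGC, were found on either strand in 18 of the 71 windows (25.4%), against 4.60% of all 32851 windows. The ETS letters CCGGAAG were in 16 windows (22.5%, against 8.86%) and the YY1 letters AAGATGGC in 9 (12.7%, against 2.75%). One or more of the 3 was in 37 windows (52.1%, against 14.7%). By complex, NRF1 letters stood in 8 of 34 windows of complex I, 2 of 3 of complex II, 1 of 5 of complex III, 1 of 13 of complex IV and 6 of 16 of complex V. YY1 letters stood in 7 windows of complex I, 2 of complex V and none of the others. In all, 6 strings were searched, and the other 3, which overlap those given (the NRF1 letters with T as the middle base in 7.04% of windows against 0.971%, CGGAAG in 38.0% against 16.9%, CATGCGC in 18.3% against 3.91%), were put aside after their shares were seen. A match is a description of the letters and not a bound site. The windows of all genes were not matched for base composition, and a gene with more than 1 window counts in each. The runs below lie before the start, outside annotated exons, read 5′ to 3′ on the gene's own strand, with NRF1 letters in capitals. Cox6a1, the subunit VIa isoform in most tissues (chr5:115348982-115349129, minus strand), and Atp5h, subunit d of the ATP synthase stalk (chr11:115419963-115420127, minus strand), show such letters. Cox7a1 (chr7:30183921-30184143, plus strand) and Cox7a2 (chr9:79759879-79760103, minus strand) are the isoform pair described with its levels below, and none of the 3 motifs was found in their runs. These 4 were chosen after the values were seen.
Cox6a1: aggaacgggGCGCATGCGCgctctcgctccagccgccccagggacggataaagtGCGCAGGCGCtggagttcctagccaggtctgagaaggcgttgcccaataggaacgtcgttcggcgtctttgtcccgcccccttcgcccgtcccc
Atp5h: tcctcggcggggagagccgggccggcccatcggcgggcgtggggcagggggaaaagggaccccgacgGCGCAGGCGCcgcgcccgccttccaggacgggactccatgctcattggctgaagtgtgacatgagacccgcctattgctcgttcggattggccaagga
Cox7a1: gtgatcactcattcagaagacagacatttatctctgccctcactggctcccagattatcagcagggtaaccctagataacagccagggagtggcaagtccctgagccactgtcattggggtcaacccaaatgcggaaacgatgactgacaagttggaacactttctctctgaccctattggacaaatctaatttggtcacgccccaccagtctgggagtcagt
Cox7a2: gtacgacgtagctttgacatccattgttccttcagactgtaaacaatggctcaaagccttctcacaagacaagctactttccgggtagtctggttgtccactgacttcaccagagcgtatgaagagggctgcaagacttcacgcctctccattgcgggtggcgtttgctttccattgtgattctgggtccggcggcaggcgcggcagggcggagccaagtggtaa

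Summed over all 83 genes, the chain stood at 2808 and 2714 CPM in the YG+ pDC libraries, 3215 and 2649 CPM in PBS pDCs and 2607 and 3471 CPM in Sirpa+ DCs. The groups overlapped, and the 2 Sirpa+ DC libraries were themselves the lowest and the highest of the 6. As a share of raw gene counts this was 0.280% (95% Wilson interval 0.268% to 0.293%) and 0.268% (0.255% to 0.282%) in YG+ pDCs. In PBS pDCs it was 0.283% (0.260% to 0.309%) and 0.277% (0.261% to 0.293%). Sirpa+ DCs had 0.236% (0.218% to 0.255%) and 0.331% (0.316% to 0.347%), so their replicates differed by more than counting error and the 4 pDC libraries lay between them. Per 1000000 uniquely placed records the chain genes had 94.0 and 69.6 counts for YG+ pDCs, 23.9 and 58.8 for PBS pDCs, and 26.7 and 75.6 for Sirpa+ DCs. On that scale replicate 1 of both PBS groups was low, as was the share of records that fell in genes at all. All values here are relative levels from bulk RNA, in which fewer cells of a type and less RNA per cell cannot be told apart.

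By complex, the summed level of complex I was 853 and 820 CPM for YG+ pDC libraries 1 and 2, 1116 and 900.1 CPM for PBS pDCs, and 842 and 1128 CPM for Sirpa+ DCs. Complex II, which also serves the citric acid cycle, stood at 324 and 274 CPM, 210.5 and 252 CPM, and 190.4 and 375 CPM in the same order. Complex III gave 159 and 157 CPM, 153 and 92.6 CPM, and 84.6 and 169 CPM. For these 3 complexes the Sirpa+ DC pair overlapped both pDC groups. YG+ pDC values lay below those of PBS pDCs for complex I and above them for complexes II and III. Complex IV reached 471 and 469 CPM for YG+ pDCs, 848 and 472 CPM for PBS pDCs, and 542 and 598 CPM for Sirpa+ DCs. Complex V stood at 1002 and 995 CPM, 887 and 933 CPM, and 948 and 1200.2 CPM. YG+ pDCs were thus the lowest group for complex IV, by a margin of under 2 CPM to the nearer PBS pDC library, and above both PBS pDC libraries for complex V. The orders of complexes II, III and V each rested on a single gene. Without Sdha, complex II stood at 132 and 82.3 CPM in YG+ pDCs and 128 and 87.9 CPM with PBS. Without Uqcrc2, complex III stood at 102 and 94.8 CPM and at 128 and 44.0 CPM, and without Atp5b, complex V stood at 663 and 664 CPM and at 823 and 627 CPM. Complexes I and IV without their most abundant gene kept both YG+ pDC libraries below both PBS pDC libraries. The order of complex IV was nevertheless lost without Cox7c, and also without Cox8a. In each case PBS pDC replicate 2 then fell below both YG+ pDC libraries. With 2 libraries against 2 an exact permutation test cannot go below a two-sided p of 0.333, so no test was made on these sums.

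**Figure D1:**
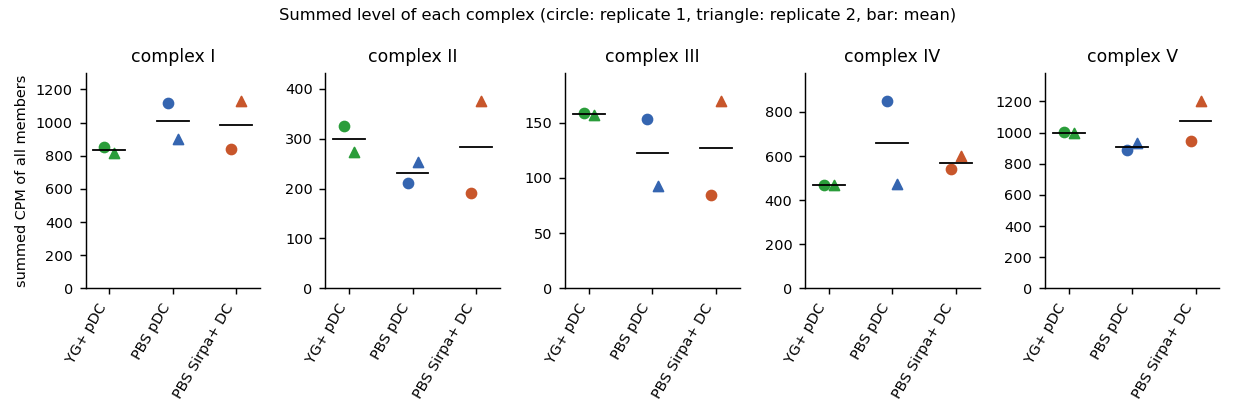
Summed CPM of all genes of each complex (vertical axis, from 0) for the 3 groups, with a circle for replicate 1, a triangle for replicate 2 and a bar at the mean of the 2. Complex IV in PBS pDC replicate 1 stands at 848 CPM against 469 to 598 CPM in the other 5 libraries.

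In the makeup of the chain's counts, PBS pDC replicate 1 stood apart for complexes IV and V. Complex V took 34.6% to 36.7% of chain counts in the other 5 libraries and 27.6% there (139 of 504 counts, 95% Wilson interval 23.9% to 31.6%). Complex IV took 16.8% to 20.8% elsewhere and 26.4% there (22.7% to 30.4%). Complex I took 30.2% to 34.7% over all 6 libraries. Complex II varied between other libraries as well, from 11.6% (10.2% to 13.0%) in YG+ pDC replicate 1 down to 7.31% (5.50% to 9.64%) in Sirpa+ DC replicate 1 and 6.55% in PBS pDC replicate 1. Complex III ranged from 3.25% to 5.80%.

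Per kilobase of transcript, the scale on which genes can be compared, the highest mean levels over the 6 libraries were in complexes IV and V. Atp5j, coupling factor 6 of the ATP synthase stalk, had 160.2 CPM per kilobase, Cox8a 150.3, Atp5b 145, Cox4i1 141, Cox7c 138 and Atp5c1, the rotating gamma subunit, 110.1. Complex I was led by its accessory subunits Ndufa6 (109 CPM per kilobase) and Ndufa13 (75.02), with Ndufa4 at 73.4. In complex II the flavoprotein Sdha led with 55.5, ahead of Sdhd (40.9) and Sdhb (34.6). Complex III had its hinge protein Uqcrh at 40.9, the Rieske protein Uqcrfs1 at 33.4 and the core protein Uqcrc2 at 20.9. Genes next to each other in this order do not differ beyond the spread between their libraries, since single genes spanned up to several-fold within a group. Lengths are medians over the principal transcripts of GENCODE M21, a definition changed once after implausible lengths were seen.

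**Figure D2:**
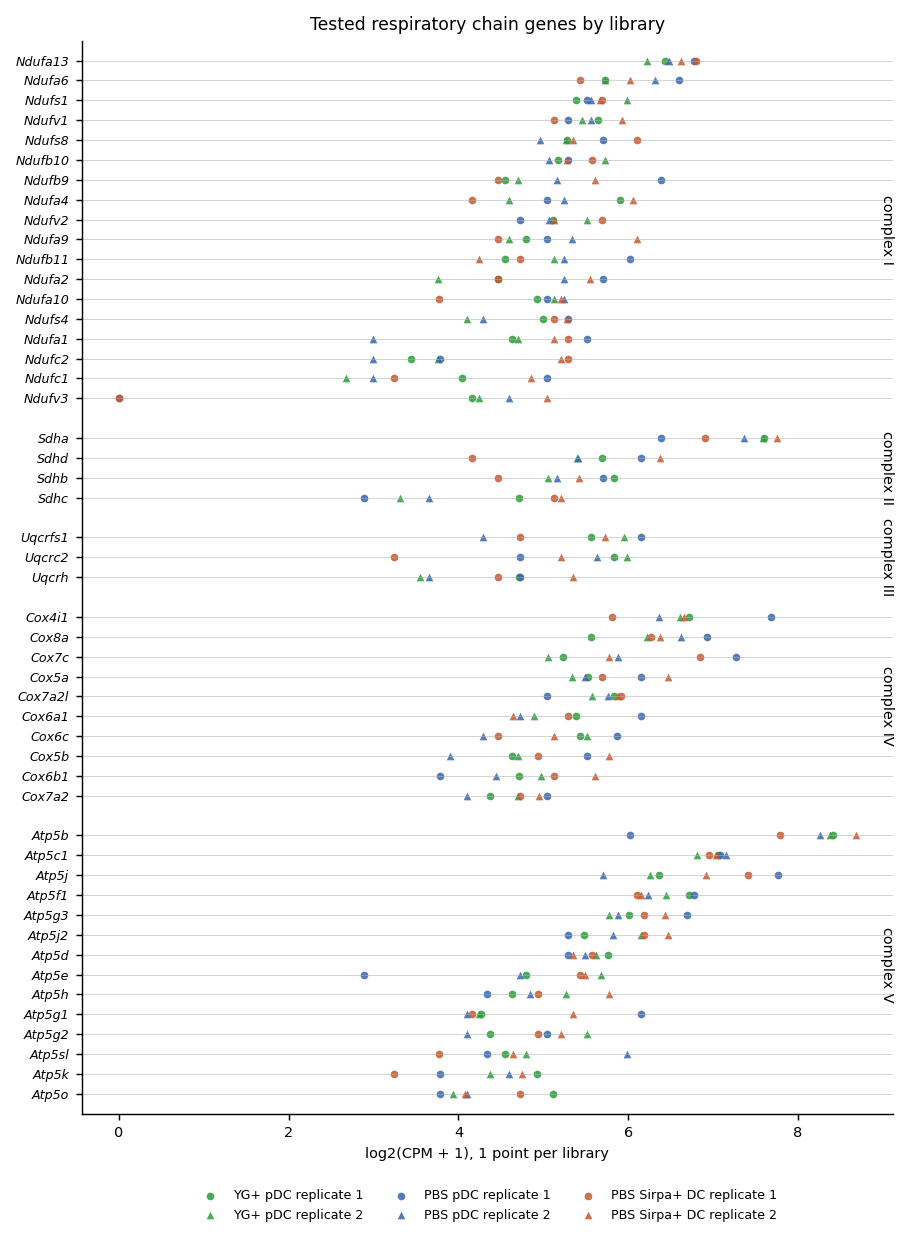
Level of 49 of the 50 tested genes as log2(CPM + 1) on the horizontal axis, 1 point per library, ordered by mean level within each complex. Circles of PBS pDC replicate 1 and Sirpa+ DC replicate 1 often lie at an edge of a gene's range, as for Atp5b and Ndufv3.

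Among catalytic and core subunits, Atp5b and Sdha were steady in the YG+ pDC pair and variable in both PBS pairs. Atp5b, the catalytic beta subunit of complex V (chr10:128083273-128090391 in GENCODE M21, GRCm38, plus strand), had 339 and 331 CPM in the YG+ pDC libraries, 63.8 and 305 CPM in PBS pDCs and 220.0 and 409 CPM in Sirpa+ DCs. It was the most abundant chain gene by counts (825 in all), and PBS pDC replicate 1, with 10 of these counts, stood far below the other 5 libraries. Sdha, which binds succinate and FAD, had 192 and 191 CPM in the YG+ pDC libraries, 82.9 and 164 CPM in PBS pDCs and 118 and 215 CPM in Sirpa+ DCs. PBS pDC replicate 1 was again the lowest, and both YG+ pDC libraries lay above both PBS pDC libraries. Ndufs1, the large iron-sulfur subunit of complex I, had 40.7 and 62.6 CPM in the YG+ pDC libraries, 44.6 and 46.3 CPM in PBS pDCs and 50.8 and 49.8 CPM in Sirpa+ DCs, and Ndufv1, which binds NADH and FMN, had 49.2 and 42.9 CPM in the YG+ pDC libraries, 38.3 and 46.3 CPM in PBS pDCs and 33.9 and 59.8 CPM in Sirpa+ DCs. Ndufv1 overlapped between all groups, and Ndufs1 was lower in both PBS pDC libraries than in both Sirpa+ DC libraries, with the YG+ pDC pair on either side. Ndufv3, an accessory subunit of the same arm, had 16.9 and 17.9 CPM in the YG+ pDC libraries, 0 and 23.1 CPM in PBS pDCs and 0 and 31.9 CPM in Sirpa+ DCs. It was at 0 in replicate 1 of both PBS groups and detected in the other 4 libraries.

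Of the 10 tested complex IV genes, 8 were higher in PBS pDC replicate 1 than in replicate 2, and 2, Cox6b1 and Cox7a2l, were lower there. Cox4i1, the common isoform of subunit IV, had 104 and 96.6 CPM in the YG+ pDC libraries, 204 and 81.0 CPM in PBS pDCs and 55.0 and 99.7 CPM in Sirpa+ DCs. Cox7c, a small subunit without a tissue isoform, had 36.5 and 32.2 CPM in the YG+ pDC libraries, 153 and 57.8 CPM in PBS pDCs and 114 and 53.8 CPM in Sirpa+ DCs. Cox8a, the common isoform of subunit VIII, had 46.4 and 73.4 CPM in the YG+ pDC libraries, 121 and 97.2 CPM in PBS pDCs and 76.2 and 81.7 CPM in Sirpa+ DCs. For each of these PBS pDC replicate 1 was the highest library, and for Cox7c and Cox8a both YG+ pDC libraries lay below the other 4. Cox5a, a subunit on the matrix side, had 44.9 and 39.4 CPM in the YG+ pDC libraries, 70.2 and 44.0 CPM in PBS pDCs and 50.8 and 87.7 CPM in Sirpa+ DCs, and its YG+ pDC values were at the low end, with PBS pDC replicate 2 at 44.0 CPM between them.

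Thymic pDCs were first compared with Sirpa+ DCs from PBS mice, which sets a plasmacytoid against a conventional subset. No chain gene was called: 0 of 50 passed edgeR's quasi-likelihood test at a Benjamini-Hochberg adjusted p under 0.05, against 11.4% of the 8141 genes tested (4.54% higher and 6.89% lower in pDCs). DESeq2 and limma-voom also called 0 of 50. At an unadjusted p under 0.05, 0 were higher (11% of all genes) and 2 lower (13%). Both libraries lay above both of the other group for 5 genes (22.9% of all genes) and below for 9 (24.2%). The median log2 fold change of the 50 was -0.19, against 0.08 over all genes, and 44 of 50 (88%) differed by less than 2-fold, against 65.8% of all genes. By complex the median was -0.26 for complex I, -0.21 for II, -0.09 for III, -0.08 for IV and -0.14 for V. The intervals bound the differences only loosely: 34 of 50 (68%) lay within 4-fold in either direction and 0 within 2-fold. Over all genes these shares were 48.6% and 1.36%. Without PBS pDC replicate 1, 0 members were called and the median was -0.31, and without Sirpa+ DC replicate 2 it was 0.20. Without PBS pDC replicate 2, Atp5b was called lower in the remaining PBS pDC library (log2 fold change -2.37, adjusted p 0.0178 by edgeR), in a fit that called 13.7% of its 9494 genes. Without replicate 1 its value was -0.066.

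The smallest p-values in that comparison belonged to genes lower in pDCs. Ndufc2, an accessory subunit of the complex I membrane arm (chr7:97400003-97407802, plus strand), had 9.83 and 12.5 CPM in the YG+ pDC libraries, 12.8 and 6.94 CPM in PBS pDCs and 38.1 and 35.9 CPM in Sirpa+ DCs. Both Sirpa+ DC libraries were above all 4 pDC libraries, on 2 to 18 counts per library. Its log2 fold change was -2.03 ± 0.78 (SE), 95% interval -3.74 to -0.32, adjusted p 0.131, which did not pass. Sdhc, a membrane anchor of complex II, had 25.3 and 8.95 CPM in the YG+ pDC libraries, 6.38 and 11.6 CPM in PBS pDCs and 33.9 and 35.9 CPM in Sirpa+ DCs, with a log2 fold change of -1.79 ± 0.81 (SE) and an adjusted p of 0.205. All 4 pDC libraries lay below both Sirpa+ DC libraries. Cox6b1, which faces cytochrome c, had 12.8 and 20.8 CPM in PBS pDCs and 33.9 and 47.8 CPM in Sirpa+ DCs (log2 fold change -1.20 ± 0.62 (SE), adjusted p 0.27). In the other direction, Ndufb11 of complex I had 63.8 and 37.0 CPM in PBS pDCs and 25.4 and 17.9 CPM in Sirpa+ DCs (log2 fold change 1.18 ± 0.63 (SE), adjusted p 0.286). Atp5sl had 19.1 and 62.5 CPM and 12.7 and 23.9 CPM (1.21 ± 0.68 (SE) on the log2 scale, adjusted p 0.314), with overlapping groups. Cox4i1, given above, had a log2 fold change of 0.76 ± 0.53 (SE) and an adjusted p of 0.436, and its value was 0.0011 without PBS pDC replicate 1 and 1.28 without replicate 2.

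YG+ pDCs were then compared with PBS pDCs, which asks how microsphere-carrying cells in the thymus of tumour-bearing mice differ from pDCs of the same gate. Again 0 of 50 chain genes were called, and 0% of all 8141 genes. Limma-voom called 0 of 50 and 0 of all genes. DESeq2 gave an adjusted p to 3 of the 50 and to 1828 of all genes, calling 0 of the former and 111 of the latter, so it says nothing on the other 47 chain genes. At an unadjusted p under 0.05, 0 were higher (4.69% of all genes) and 1 lower (6.72%). The groups did not overlap for 7 genes higher in YG+ pDCs (26.5% of all genes) and 10 lower (19.3%), of which 7 were complex I genes. The median log2 fold change was 0.10, against 0.08 for all genes, and 46 of 50 (92%) differed by less than 2-fold, against 77.9%. It was -0.10 for complex I and -0.16 for IV, and 0.35 for II, 0.48 for III and 0.24 for V. Of the 50 intervals 36 (72%) lay within 4-fold, against 61.3% of all genes, and 0 within 2-fold, against 2.81%. Without PBS pDC replicate 1 the median was 0.16, with 0 called. Without PBS pDC replicate 2, which leaves the library that stands apart as the only PBS pDC library, 3 were called, beside 870 of 9494 genes (9.16%), and the median was -0.33. Those 3 were Atp5b (log2 fold change 2.42, adjusted p 0.0190), Atp5j (-1.43, adjusted p 0.0492) and Cox7c (-2.10, adjusted p 0.0246) by the same edgeR test. The lone library is then assumed to vary like the other groups.

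Cox7c (chr13:86044816-86046904, minus strand) had the smallest p of the chain in that comparison, with a log2 fold change of -1.51 ± 0.58 (SE), 95% interval -2.78 to -0.23 and an adjusted p of 0.363. Its value was -0.75 without PBS pDC replicate 1, -0.29 with the share of records in genes as a covariate and -0.24 when scaled to uniquely placed records. Ndufa2, an accessory subunit of the complex I matrix arm, had 21.1 and 12.5 CPM in the YG+ pDC libraries, 51.0 and 37.0 CPM in PBS pDCs and 21.2 and 45.9 CPM in Sirpa+ DCs. Its YG+ pDC libraries lay below both PBS pDC libraries, with a log2 fold change of -1.30 ± 0.62 (SE) and an adjusted p of 0.457. Cox8a followed with -0.85 ± 0.43 (SE) and an adjusted p of 0.49. Among genes with a positive value, Atp5e, the small epsilon subunit of the ATP synthase rotor, had 26.7 and 50.1 CPM in YG+ pDCs and 6.38 and 25.5 CPM in PBS pDCs (log2 fold change 1.00 ± 0.66 (SE), adjusted p 0.609), and PBS pDC replicate 1 rested on 1 count. For Atp5b the value was 0.79 ± 0.60 (SE), 95% interval -0.52 to 2.10, adjusted p 0.665. Without PBS pDC replicate 1 it was 0.12, and with the covariate it was -0.27. Sdha had 0.58 ± 0.47 (SE) and an adjusted p of 0.686, with 0.22 without PBS pDC replicate 1. None of these passed.

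**Figure D3:**
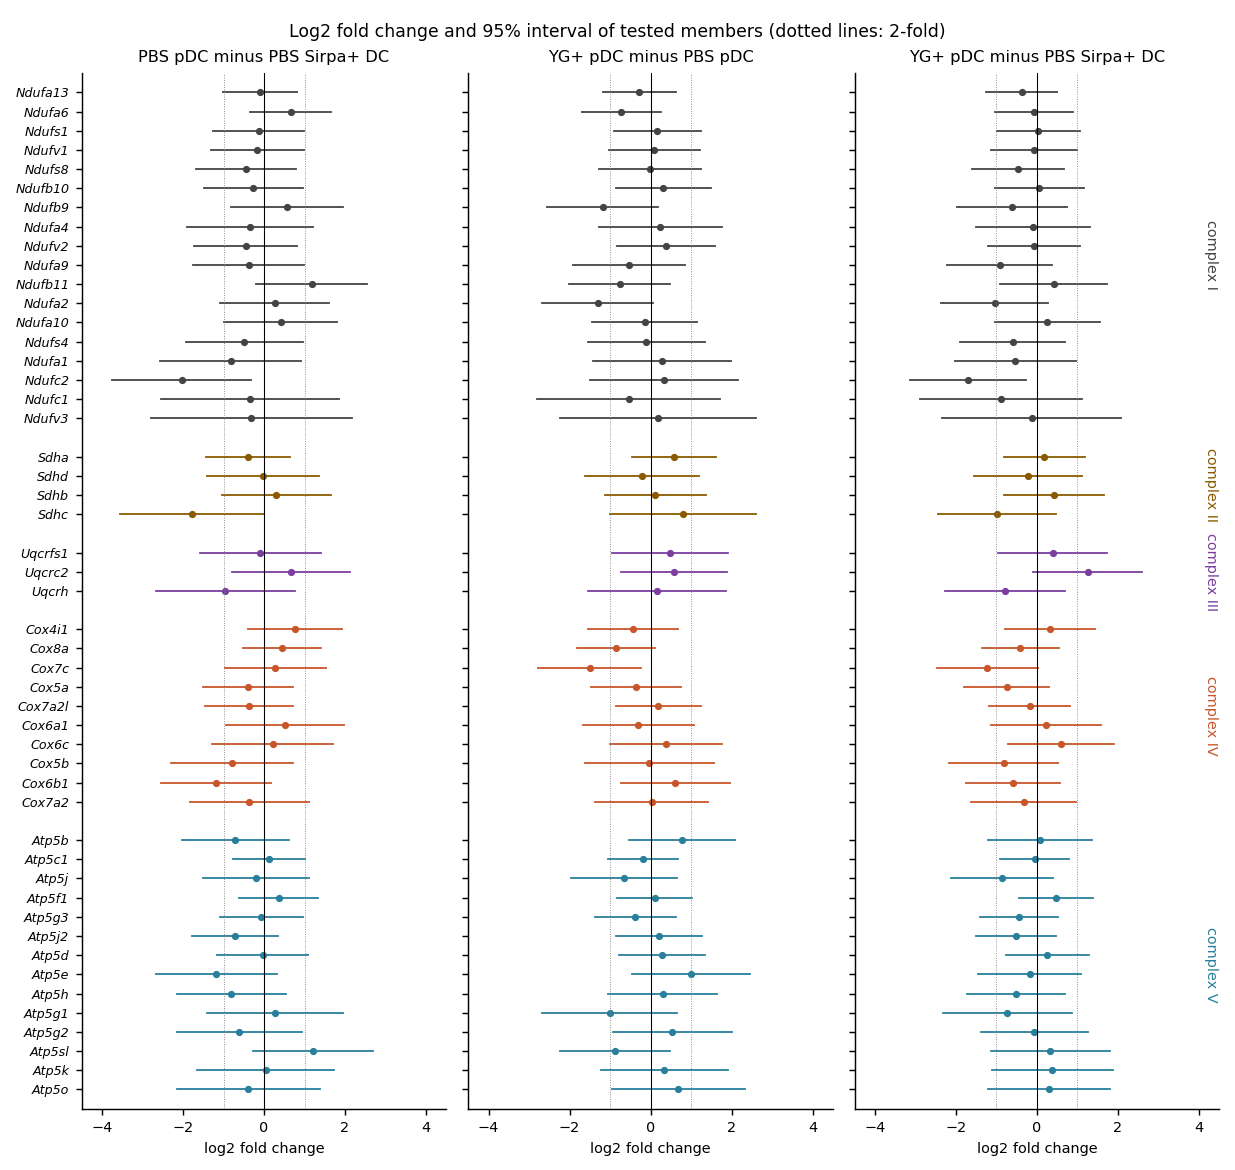
Log2 fold change (point) and 95% interval (line) of 49 of the 50 tested genes in the 3 comparisons, coloured by complex, with dotted lines at 2-fold. Nearly all intervals cross 0 and reach past 2-fold, and Ndufc2 (in both comparisons with Sirpa+ DCs) and Cox7c (in YG+ against PBS pDCs) lie farthest to the left.

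YG+ pDCs were last compared with Sirpa+ DCs. The 3 comparisons share libraries, so their values are set side by side and not counted as separate evidence. Here 0 of 50 chain genes were called, against 7.16% of all genes (3.07% higher and 4.09% lower), and DESeq2 and limma-voom again called 0. At an unadjusted p under 0.05, 0 were higher (10.2% of all genes) and 1 lower (12.6%). Both YG+ pDC libraries lay above both Sirpa+ DC libraries for 4 genes (32.8% of all genes) and below them for 17 (29.1%), of which 7 were among the 10 tested complex IV genes and 6 in complex I. The median was -0.16, against 0.04, and 46 of 50 (92%) differed by less than 2-fold, against 68.0%. By complex it was -0.13 for I, -0.02 for II, 0.39 for III, -0.37 for IV and -0.06 for V. Of the intervals 37 (74%) lay within 4-fold, against 55.1% of all genes, and 1 within 2-fold (2%, against 2.32%). Without Sirpa+ DC replicate 2 the median was 0.067. Without PBS pDC replicate 1, which is in neither group compared here, the median was -0.18 with 0 called. That fit was filtered and scaled anew, and its median is over 58 chain genes.

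Ndufc2 again had the smallest p, with a log2 fold change of -1.71 ± 0.65 (SE), 95% interval -3.14 to -0.27 and an adjusted p of 0.15. It was called (log2 fold change -1.73, adjusted p 0.0444 by edgeR) when the 4 libraries compared were fitted alone, a fit that called 18.7% of its 7934 genes. Cox7c came next with -1.22 ± 0.57 (SE), adjusted p 0.23, and Ndufa2 with -1.04 ± 0.61 (SE), adjusted p 0.34, and for both the YG+ pDC pair lay below both Sirpa+ DC libraries. On the positive side, Uqcrc2, a core subunit of complex III (chr7:120635176-120659524, plus strand), had 56.2 and 62.6 CPM in the YG+ pDC libraries, 25.5 and 48.6 CPM in PBS pDCs and 8.46 and 35.9 CPM in Sirpa+ DCs. Both YG+ pDC libraries were the highest of the 6, with a log2 fold change of 1.25 ± 0.61 (SE) and an adjusted p of 0.254, and 19.7% of its exon bases lie under an exon of Pdzd9 on the opposite strand. Atp5f1, subunit b of the peripheral stalk, had 104 and 85.9 CPM in YG+ pDCs and 67.7 and 69.8 CPM in Sirpa+ DCs (0.46 ± 0.42 (SE), adjusted p 0.553). Cox6c had 42.1 and 44.7 CPM and 21.2 and 33.9 CPM (0.60 ± 0.60 (SE), adjusted p 0.602).

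Alternative isoforms were read in counts, since most of the minor ones were too low to test. A low or 0 count does not show that a transcript is absent, since Ndufs3 and Atp5a1 were also listed at or near 0. For subunit IV, Cox4i1 had 258 counts and Cox4i2, its hypoxia-linked and lung-enriched counterpart, had 11. Cox4i2 had 2 and 0 counts among the YG+ pDC libraries, 0 and 1 for PBS pDCs, and 5 and 3 for Sirpa+ DCs. These are at or near the 3-count limit, so no fold is given. Cox8a had 194 counts, Cox8b, known from heart and muscle, 3, and Cox8c, known from testis, 0. Cox6b1 had 78 and the testis form Cox6b2 had 4, Cox7b had 36 and Cox7b2 had 0, and Ndufa4 had 113 and Ndufa4l2, a hypoxia-induced relative, 0. The 3 genes for the identical mature subunit c of the ATP synthase ring were all present, with 65 counts for Atp5g1, 76 for Atp5g2 and 176 for Atp5g3. Per kilobase, Atp5g3 averaged 81.3 CPM in YG+ pDCs, 111 with PBS and 109.7 in Sirpa+ DCs. The averages of Atp5g2 on the same scale were 54.95, 41.0 and 55.9. Atp5g3 was thus the higher of the 2 in the mean of each group.

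For subunit VIIa, a form known from heart and muscle was present beside the common one. Cox7a1 (chr7:30184144-30186078, plus strand), the heart and muscle form, had 10 and 9 counts among the YG+ pDC libraries, 5 and 6 for PBS pDCs, and 1 and 2 for Sirpa+ DCs. That was 14.05 and 16.1 CPM in the YG+ pDC libraries, 31.9 and 13.9 CPM with PBS and 4.23 and 3.99 CPM in Sirpa+ DCs, so all 4 pDC libraries lay above both Sirpa+ DC libraries. Cox7a2 (chr9:79755361-79759878, minus strand), the common form, had 19.7 and 25.1 CPM in the YG+ pDC libraries, 31.9 and 16.2 CPM in PBS pDCs and 25.4 and 29.9 CPM in Sirpa+ DCs. Its PBS pDC pair spanned the range, and the YG+ pDC pair lay just below the Sirpa+ DC pair. Per kilobase, Cox7a1 averaged 38.4 CPM in YG+ pDCs, 58.2 with PBS and 10.5 among Sirpa+ DCs, and Cox7a2 33.9, 36.5 and 42.0. Cox7a1 made up 41.7% (95% exact interval 22.1% to 63.4%) and 39.1% (19.7% to 61.5%) of the 2 genes' counts in YG+ pDCs. In PBS pDCs it made up 50% (18.7% to 81.3%) and 46.2% (19.2% to 74.9%). In Sirpa+ DCs it made up 14.3% (0.361% to 57.9%) and 11.8% (1.46% to 36.4%). These intervals overlap between single libraries, and the share was computed after the counts were seen. Cox7a1 was below the main filter. With no filter, edgeR gave an adjusted p of 0.320 for PBS pDCs against Sirpa+ DCs and 0.458 for YG+ pDCs against Sirpa+ DCs, so neither passed. The Sirpa+ DC counts are below the 3-count limit, so no fold is given. Neither gene has an annotated exon of the opposite strand over its exons.

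**Figure D4:**
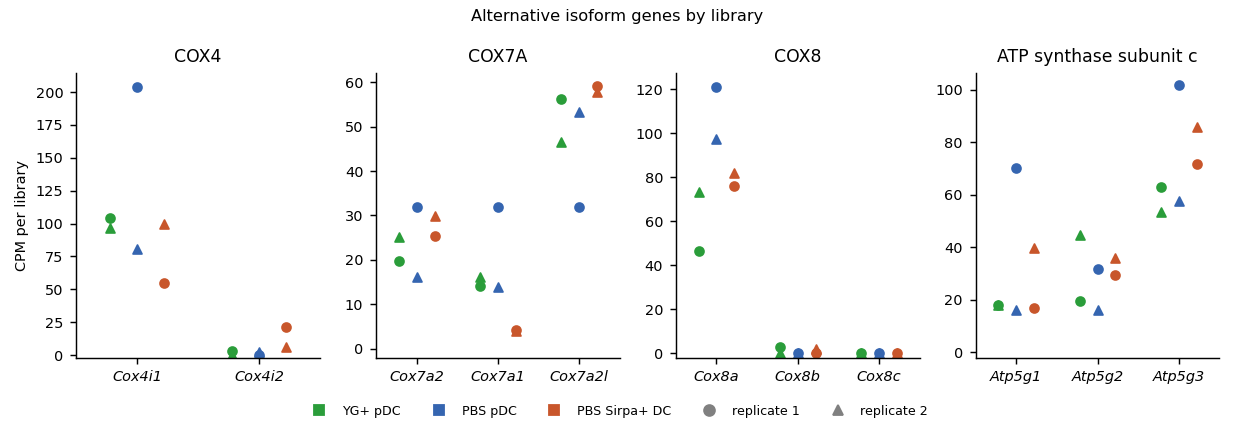
CPM per library of the isoform genes of subunits IV, VIIa and VIII and of ATP synthase subunit c, coloured by group, with circles for replicate 1 and triangles for replicate 2. Cox7a1 lies between 13.9 and 31.9 CPM in the pDC libraries and at 3.99 and 4.23 CPM in the Sirpa+ DC libraries.

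Marker genes of the sorted and of other cell types were read in the same libraries. The 7 pDC markers summed to 3786 to 5470 CPM in the 4 pDC libraries and to 753 and 833 CPM in Sirpa+ DCs, where Siglech was at 46.5 and 43.9 CPM. The 6 conventional DC markers summed to 638 to 848 CPM in pDC libraries and to 1384 and 1854 CPM in Sirpa+ DCs. Summed markers of other cells also differed between the gates. The 5 B cell markers summed to 440.1 to 563 CPM in pDC libraries and to 12.7 and 13.96 CPM in Sirpa+ DCs. The 6 T cell markers summed to 190 to 338 CPM and to 38.1 and 25.9 CPM, most of it Cd8b1 and Lck, with Cd3g at 0 in all and Cd3e at 0 in 5 of the 6 libraries. Cd3d and Rag1 were highest in a Sirpa+ DC library, at 25.4 and 15.9 CPM. The 5 macrophage markers with a row summed to 898 and 344 CPM for YG+ pDCs, 121 and 23.1 CPM for PBS pDCs, and 2086 and 3282 CPM for Sirpa+ DCs. The part of these cells in any level of a chain gene, Cox7a1 and Ndufc2 included, was not tested.

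Agreement between replicates differed by group. For the 50 tested genes the median fold between the 2 libraries was 1.21 for YG+ pDCs, 1.70 for PBS pDCs and 1.63 for Sirpa+ DCs, against 1.25, 1.83 and 1.47 over all genes. In PBS pDCs the direction moved with transcript length. The median log2 ratio of replicate 1 to replicate 2, on log2(CPM + 1), was 0.78 for the 28 chain genes with transcripts under 1000 bases, 0.11 for the 8 from 1000 to under 1500 bases and -0.27 for the 13 of 1500 bases or more. Over all genes it was 0.79, 0.43 and -0.23 in the same classes. Short transcripts such as Cox7c (540 bases) and Atp5j (742 bases; 217 and 50.9 CPM) were higher in replicate 1, and Atp5b (1916 bases) and Ndufv3 (1582 bases) were lower. In Sirpa+ DCs the medians were -0.28, -0.52 and -0.86 for the chain genes and 0, 0.06 and -0.04 over all genes. In YG+ pDCs they were -0.03, 0.24 and 0.03. The class bounds were chosen after the data were seen, and the part of length in the levels of PBS pDC replicate 1 was not tested.

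**Figure D5:**
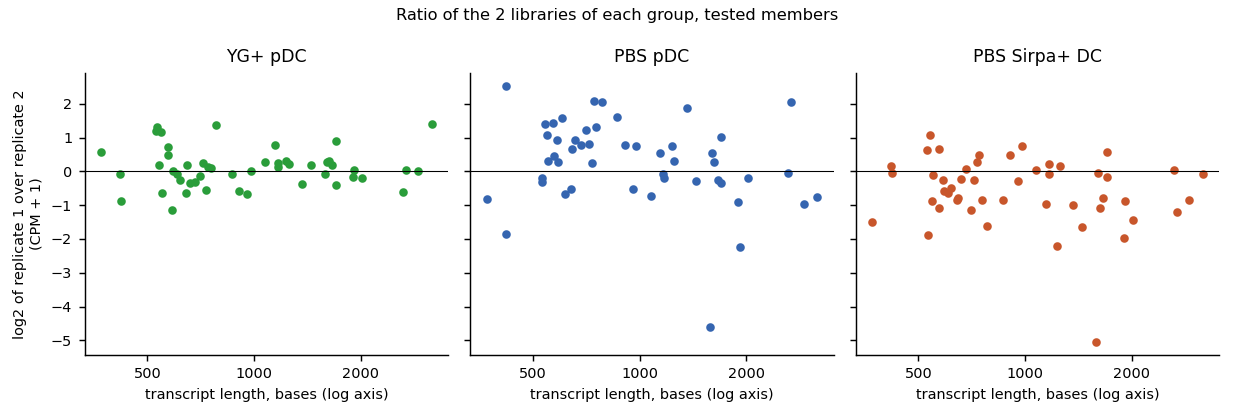
Log2 ratio of replicate 1 to replicate 2 (CPM + 1) of each tested chain gene against transcript length in bases (log axis), 1 panel per group. Of all 50 tested genes (Atp5sl has no length and is not drawn) 6 lie beyond 2-fold for YG+ pDCs, 17 for PBS pDCs and 14 for Sirpa+ DCs, and PBS pDC points lie mostly above 0 under 1000 bases, and Sirpa+ DC points lie mostly below 0.

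Other genes of mitochondrial energy metabolism gave the setting. Among factors that assemble complex I, 4 of 13 were tested and 2 were called lower in both pDC groups than in Sirpa+ DCs. Of all genes tested, 6.89% were called lower in PBS pDCs than in Sirpa+ DCs and 4.09% in YG+ pDCs. Timmdc1, which helps to build the complex I membrane arm, had 30.9 and 35.8 CPM in the YG+ pDC libraries, 31.9 and 30.1 CPM in PBS pDCs and 161 and 112 CPM in Sirpa+ DCs. All 4 pDC libraries were alike and below both Sirpa+ DC libraries, with log2 fold changes of -2.12 ± 0.48 (SE) for PBS pDCs (adjusted p 0.0179) and -2.01 ± 0.44 (SE) for YG+ pDCs (adjusted p 0.0194). Ndufaf7, a mitochondrial methyltransferase needed to assemble complex I, had 12.6 and 23.3 CPM in the YG+ pDC libraries, 12.8 and 20.8 CPM in PBS pDCs and 135 and 69.8 CPM in Sirpa+ DCs. Its log2 fold changes were -2.45 ± 0.63 (SE) (adjusted p 0.0292) and -2.48 ± 0.57 (SE) (adjusted p 0.0235). Each of these calls was lost without Sirpa+ DC replicate 1 or 2. Adjusted p then lay between 0.0590 and 0.196, and those against YG+ pDCs were lost without either YG+ pDC library too (0.0833 to 0.228). Scaling to uniquely placed records also ended all 4 calls, with adjusted p from 0.337 to 0.548. For Ndufaf7, limma-voom ended the call in PBS pDCs (0.0644) and the share of records in genes as a covariate that in YG+ pDCs (0.0600).

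Of 30 mitochondrial ribosomal protein genes tested among 76, 1 was called higher in PBS pDCs than in Sirpa+ DCs, against 4.54% of all genes. This was Mrps34 of the small subunit, with 25.3 and 23.3 CPM in the YG+ pDC libraries, 63.8 and 48.6 CPM in PBS pDCs and 12.7 and 12.0 CPM in Sirpa+ DCs. Its log2 fold change was 2.13 ± 0.62 (SE) and its adjusted p 0.0471. That call was lost without any 1 of the 6 libraries and by DESeq2 (adjusted p 0.117) and limma-voom (adjusted p 0.0725), and 63.4% of its exon bases lie under an exon of Mapk8ip3. Every other list had 0 calls in each comparison by the same edgeR test. These were subunits outside the name pattern such as Cyc1 (4 of 6 tested), assembly factors of complex II (1 of 2), III (2 of 3), IV (8 of 21) and V (1 of 3), the citric acid cycle (12 of 13), pyruvate entry (4 of 6), regulators of mitochondrial gene expression (10 of 15), fatty acid oxidation (8 of 10), adenine nucleotide and phosphate transport (5 of 6), mitochondrial antioxidants (6 of 7) and protein import (13 of 24). Cyc1, cytochrome c1 of complex III, had 39.3 and 39.4 CPM in the YG+ pDC libraries, 38.3 and 30.1 CPM in PBS pDCs and 21.2 and 27.9 CPM in Sirpa+ DCs. Cpt1a, which admits long-chain fatty acids to mitochondria, had 19.1 and 30.1 CPM in PBS pDCs and 71.9 and 69.8 CPM in Sirpa+ DCs (log2 fold change -1.43 ± 0.56 (SE), adjusted p 0.14). Sod2, the matrix superoxide dismutase, had 25.5 and 27.8 CPM and 59.2 and 81.7 CPM (-1.40 ± 0.54 (SE), adjusted p 0.134). Polg, the mitochondrial DNA polymerase, had 66.0 and 44.7 CPM in YG+ pDCs and 21.2 and 15.9 CPM in Sirpa+ DCs (1.61 ± 0.57 (SE), adjusted p 0.117). The subunits encoded by the mitochondrial genome were not analysed here.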

How the data were processed

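RNA-seq was made from 5 ng of RNA per library with an Ovation SoLo kit, all in batch 1, per the labels. The deposited values are whole read counts per gene symbol, and their 5 summary lines (97.7% to 99.5% of records) were left out. The submitters' processing notes name bcl2fastq 2.17 and mm10. The aligner, counter, annotation and strand setting were not stated.

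The members and lists were chosen with earlier results of these data known. Genes passing filterByExpr (8141) were fitted over all 6 libraries with edgeR 4.0.16 (TMM, glmQLFit, glmQLFTest, R 4.3.3), and Benjamini-Hochberg adjustment ran over all of them at a threshold of 0.05. A log2 fold change is the first-named group over the second, its SE is its size over the root of F, and a summed CPM takes all 83 genes. The code was tested on simulated data. Lengths, positions and overlaps come from GENCODE M21 (GRCm38), which matched 21777 of 23420 symbols and all chain genes but Atp5sl. Named were, per complex, the 3 genes highest per kilobase, the isoform sets, and from the top of each ranking the genes with the smallest p per comparison and direction. Of each further mitochondrial list, tested genes with the smallest p were eligible. Atp5b, Sdha, Cox4i1 and the 3 called non-members were added to the alternatives after their values were seen, as were the median of log2 fold changes, the scaling to uniquely placed records and the crossed block. Alternatives used DESeq2 1.42.0, limma-voom (limma 3.58.1), other filters, scalings, covariates and left-out libraries. Replicates of a group differed by more than counting noise, so none was taken as a duplicate. One tested complex I gene and some marker genes are counted but not reported singly here.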

Additional observations from a re-analysis of the deposited data

How the results depend on the processing

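Over 19 settings, 0 chain genes were called in every comparison with these exceptions. Leaving out single libraries gave 0 to 1 calls in PBS pDCs against Sirpa+ DCs (Atp5b, log2 fold change -2.37, adjusted p 0.0178 by edgeR, without PBS pDC replicate 2) and 0 to 3 in YG+ against PBS pDCs, the 3 without that same library. Fitting only the 4 libraries compared gave 1 call in YG+ pDCs against Sirpa+ DCs. DESeq2 gave an adjusted p to 3 of the 50 chain genes in YG+ against PBS pDCs, and values without one are not counted. The fits with calls called 13.7%, 9.16% and 18.7% of all genes. When single libraries were left out, the median log2 fold change ran from -0.31 (without PBS pDC replicate 1) to 0.20 (without Sirpa+ DC replicate 2) in the first comparison. It ran from -0.33 (without PBS pDC replicate 2) to 0.16 (without PBS pDC replicate 1) in the second and from -0.32 (without Sirpa+ DC replicate 1) to 0.067 (without Sirpa+ DC replicate 2) in the third. Each such fit was filtered anew, so the genes under the median differ. Scaled to uniquely placed records, the medians were -0.41, 1.11 and 0.66, against -0.04, 1.03 and 0.92 over all genes. In the third comparison it was also -0.37 without genes that face another and -0.33 with the covariate below.

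Single genes changed sign as follows. With the share of records in genes as a covariate, YG+ against PBS pDCs gave -0.27 for Atp5b, -0.12 for Sdha and 0.057 for Cox4i1, and YG+ pDCs against Sirpa+ DCs gave -0.85 for Atp5b and -0.39 for Sdha. Scaled to uniquely placed records, YG+ against PBS pDCs gave 0.17 for Cox8a and 0.85 for Cox4i1. In YG+ pDCs against Sirpa+ DCs, Atp5b gave -0.0076 with relative log expression factors, -0.0034 with DESeq2 and -0.093 when genes facing another annotated gene were left out. Leaving out single libraries moved it from -0.32 to 0.60 there, Sdha from -0.20 to 0.69 and Cox4i1 from -0.021 to 0.86. It moved Atp5sl from -0.092 to 1.85 and Sdha from -1.10 to 0.14 in PBS pDCs against Sirpa+ DCs, and Cox4i1 from -0.98 to 0.30 in YG+ against PBS pDCs. In all, 477 of 529 alternative values of 29 results on named genes kept direction and call, 16 changed sign, 4 gained a call and 32, all of Timmdc1, Ndufaf7 or Mrps34, lost it. The cause was not tested.

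Replicate numbers were not taken as pairs in the main fit. Replicate differences (1 minus 2) correlated across genes at -0.121 (YG+ and PBS pDCs), -0.0990 (YG+ pDCs and Sirpa+ DCs) and 0.298 (both PBS groups). Whether libraries of different groups were paired cannot be told from these values. With the replicate block 0 chain genes were called in each comparison, beside 942, 0 and 635 of all genes (931, 0 and 583 without it). With the numbers of the YG+ pDC pair crossed, a pairing added after the data were seen, 0 chain genes were called beside 1396, 294 and 1221 of all genes. Over all genes, YG+ against PBS pDCs gave 0 calls by edgeR and 111 by DESeq2, and 870 by edgeR without PBS pDC replicate 2. Depth limits every value: a chain gene had a median of 4 to 17 counts per library, and differences under 2-fold were not resolved.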

Other observations

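Summed levels of some further mitochondrial lists also set PBS pDC replicate 1 apart. The 76 genes for mitochondrial ribosomal proteins summed to 1926 and 1972 CPM in YG+ pDCs, 5529.9 and 2312 CPM for PBS pDCs, and 3076 and 2183 CPM for Sirpa+ DCs. The 21 complex IV assembly genes summed to 532 and 551 CPM, 1059 and 532 CPM, and 770 and 608 CPM in the same order. The 13 citric acid cycle genes went the other way, with 957 and 896 CPM for YG+ pDCs, 702 and 884 CPM for PBS pDCs, and 694 and 1099 CPM for Sirpa+ DCs. Replicate 1 of both PBS groups held the 2 lowest sums of that cycle. The 13 complex I assembly genes stood at 146 to 183 CPM in the 4 pDC libraries and at 398 and 293 CPM in Sirpa+ DCs. Most of the Sirpa+ DC sums came from Timmdc1 (161 and 112 CPM) and Ndufaf7 (135 and 69.8 CPM). Without these genes the sums overlapped between pDC and Sirpa+ DC libraries.

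Markers of mature DCs, which include Ccr7 and Ccl22, summed to 2051 and 1464 CPM in YG+ pDCs, 893 and 815 CPM for PBS pDCs, and 5924 and 4982 CPM for Sirpa+ DCs. Between the pDC groups Ccl22 did not overlap (451 and 345 CPM with YG, 140 and 164 CPM with PBS). Ccr7 did overlap (507 and 336 CPM, 376 and 257 CPM), and the rest of the list was split likewise. The proliferation markers Mki67, Top2a and Ccnb1 summed to 681 and 548 CPM in YG+ pDCs and to 268 to 458 CPM in the other 4 libraries. Erythroid markers summed to 21.9 to 102 CPM, all from Alas2. Thymic epithelial markers, with Foxn1 at 0 in all libraries, summed to 6.38 to 29.5 CPM in the pDC libraries and to 131 and 132 CPM in Sirpa+ DCs. Most of both Sirpa+ DC sums came from a single marker. The part of any of these cells in the levels of the respiratory chain was not tested.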
